A study of Mus musculus with 6 samples.

Results

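Excitation-contraction coupling is the step by which an electrical signal in the muscle membrane becomes a rise of calcium inside the fibre. The values here are those of 10 genes that carry it, chosen by name from the gene symbols of the deposited count table: Cacna1s, Cacng1 and Stac3 of the voltage sensor, the release channel gene Ryr1, the junctional genes Trdn and Jph1, the calcium store genes Casq1 and Casq2, and the calcium pump genes Atp2a1 and Atp2a2. All 10 had 1 row each among the 56792 rows of the table, and all 10 had enough counts for a test. The lenvatinib libraries came from C2C12 cells, an established mouse myoblast line of genotype WT that fuses into myotubes in low serum, kept in 2% horse serum for 4 days with 1 µM lenvatinib, an inhibitor of VEGF, FGF and PDGF receptor kinases (3 libraries). The untreated libraries came from the same line differentiated for the same time without the drug (3 libraries). C2C12 is a single line without nerve or load, and the labels state neither whether the 3 libraries of a group were separate cultures nor whether the untreated cells received a solvent, so the tests rest on the spread among libraries, which may be technical.

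In skeletal muscle the dihydropyridine receptor, a calcium channel of the transverse tubule, senses the membrane voltage and opens the ryanodine receptor of the facing sarcoplasmic reticulum through physical contact. Calcium held in that store by calsequestrin flows out and starts contraction, and the SERCA pumps return it. Cultured myotubes build these junctions during differentiation and express several isoforms side by side that mature muscle fibres use in separate fibre types.

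Levels are given in CPM, each count divided by the size of its library after TMM scaling, and changes as log2 fold changes of lenvatinib over untreated libraries, each ± its SE in the quasi-likelihood test of edgeR. Adjustment of p-values was by Benjamini-Hochberg across all 14989 tested rows, and a gene was called at an adjusted p under 0.05. Total counts were 24566768 to 32406563 in the lenvatinib libraries and 25529288 to 28886472 in the untreated ones, and the 10 genes together took 0.597 to 0.616% and 0.606 to 0.630% of them. The label of muscle cells was checked against 9 muscle markers, all of them present and tested. Of these 7 rose and 1 (Des) fell, with summed levels of 15057 to 15109 CPM in lenvatinib and 14213 to 14695 CPM in untreated libraries. Over all tested rows 28.2% were called, 13.3% higher and 14.9% lower. Among the 2822 rows at least as abundant as the lowest of the 10 genes 44.6% were called. Of 6 smooth muscle markers 4 were tested, and 3 of these rose and none fell. Sums over the 6 were 3695 to 3806 CPM with lenvatinib and 2329.5 to 2482 CPM without it. The defining markers Myh11 and Myocd were nevertheless below 0.1 CPM on average in both groups. Of 8 fibroblast markers 6 were tested, and 3 of these rose and 2 fell. Sums over the 8 were 920.2 to 1006 CPM in lenvatinib and 844 to 879 CPM in untreated libraries. Cardiomyocyte markers summed to 13.3 to 15.6 CPM and 14.6 to 16.4 CPM, nearly all from Myh6. Only 3 of these 8 had enough counts for a test, and none was called. Myl7 and Tbx5 were at 0 counts in every library. The sums of 6 adipocyte markers were 41.9 to 46.9 CPM and 45.9 to 48.4 CPM (3 tested, 1 rose, 1 fell, Plin1 at 0). Those of 6 macrophage markers were 4.35 to 4.84 CPM and 5.52 to 6.81 CPM (3 tested, 1 fell, Adgre1 at 0). Those of 5 endothelial markers were 0.767 to 1.43 CPM and 0.470 to 0.660 CPM (1 tested and not called, Emcn at 0). The 3 neuronal markers with a row reached at most 0.486 CPM in sum and had too few counts for a test. These markers moved beside the results below, and their part in them was not tested. In such bulk libraries, a change in the number of muscle cells and a change in RNA per muscle cell cannot be told apart.

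Promoter sequence was on hand in RefSeq (build GRCm38.p6) for 5 of the 10 genes. Promoter positions are in that build and cannot be compared with the row positions given below as deposited. The windows shown are the 250 bases before the annotated start of Ryr1 and Cacna1s, whose transcripts moved in opposite directions, and of Casq1 and Casq2, a pair of isoforms of which the first fell. Each is written from 5′ to 3′ on the strand of its gene, and capitals mark an E-box, the letters CANNTG that myogenic factors such as MyoD and myogenin bind, which reads the same on both strands.
Ryr1 chr7:29125152-29125401 minus strand: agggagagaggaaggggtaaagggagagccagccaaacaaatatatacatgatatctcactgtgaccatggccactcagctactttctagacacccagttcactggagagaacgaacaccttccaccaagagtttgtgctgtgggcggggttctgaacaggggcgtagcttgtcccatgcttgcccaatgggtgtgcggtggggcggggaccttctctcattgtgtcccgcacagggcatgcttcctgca
Cacna1s chr1:136052561-136052810 plus strand: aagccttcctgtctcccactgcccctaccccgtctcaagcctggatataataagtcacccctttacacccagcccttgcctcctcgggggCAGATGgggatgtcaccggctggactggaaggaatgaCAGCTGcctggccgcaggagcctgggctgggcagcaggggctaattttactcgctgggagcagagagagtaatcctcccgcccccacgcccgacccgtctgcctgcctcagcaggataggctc
Casq1 chr1:172219896-172220145 minus strand: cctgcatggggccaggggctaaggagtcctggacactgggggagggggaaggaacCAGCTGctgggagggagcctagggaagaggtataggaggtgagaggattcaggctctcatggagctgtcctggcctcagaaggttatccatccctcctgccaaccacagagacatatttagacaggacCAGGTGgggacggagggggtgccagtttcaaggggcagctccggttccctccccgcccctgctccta
Casq2 chr3:102086165-102086414 plus strand: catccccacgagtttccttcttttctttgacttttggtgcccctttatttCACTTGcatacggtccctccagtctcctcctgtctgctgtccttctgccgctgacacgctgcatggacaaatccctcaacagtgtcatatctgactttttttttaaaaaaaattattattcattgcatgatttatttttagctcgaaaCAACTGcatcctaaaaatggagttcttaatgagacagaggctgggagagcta
The window of Ryr1 held no E-box, and those of Cacna1s, Casq1 and Casq2 held 2 each. The window of Atp2a1 held 1. Among 32851 RefSeq promoter windows of this length 66.2% held at least 1 E-box and 31.8% at least 2. A site of the MEF2 type was found on either strand in the window of Casq2, from base -69 to -60 before the start, and in none of the other 4, while 2.92% of all windows held one. None of the 5 windows held a CArG box of the serum response factor type, present in 1.47% of all windows.

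With lenvatinib 4 of the 10 genes rose (Cacna1s, Cacng1, Stac3 and Trdn), 3 fell (Ryr1, Casq1 and Atp2a2) and 3 did not pass the test (Casq2, Atp2a1 and Jph1). Over all tested rows 28.2% were called, 13.3% higher and 14.9% lower, and among the 2822 rows at least as abundant as the lowest of these genes 44.6% were called. The 10 genes did not share a direction, with a median log2 fold change of 0.05 against 0.00274 over all tested rows, and a range of -0.69 to 0.28. The 2 groups did not overlap in 8 of the 10 genes, against 40.1% of all tested rows and 56.3% of the rows at that abundance. Casq1 moved most, and no other member changed by more than 0.3 on the log2 scale.

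**Figure D1:**
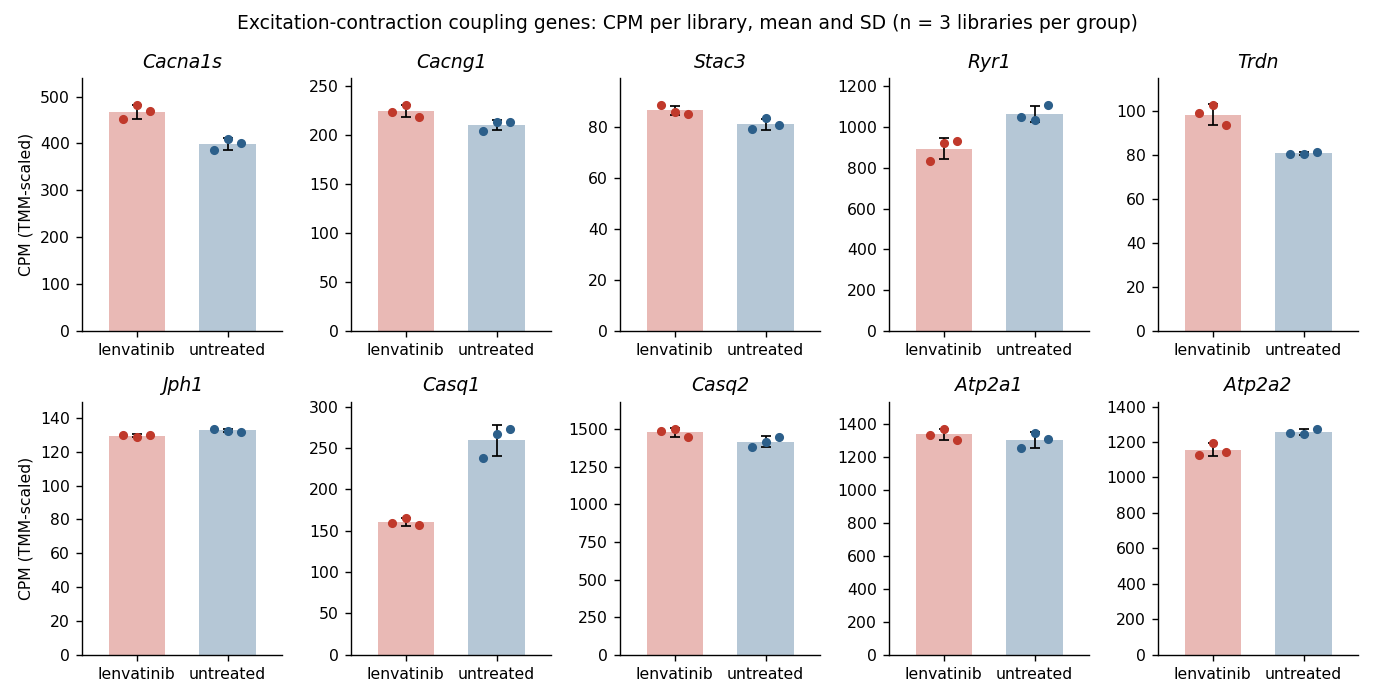
CPM of each gene in the 3 lenvatinib and the 3 untreated libraries, scaled with TMM factors. Points are libraries, bars the mean and whiskers the SD, and each panel has its own axis from 0. The untreated libraries of Casq1 sit between 238 and 273 CPM, above the lenvatinib libraries at 157 to 166 CPM, while the points of Atp2a1 and Casq2 overlap.

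All 3 voltage sensor genes were called higher with lenvatinib, but only Cacna1s kept its call under all 15 alternative ways of processing. Cacng1 kept it under 13 of them and Stac3 under 7. Cacna1s encodes the pore-forming and voltage-sensing subunit of the dihydropyridine receptor, and its row lies on chromosome 1 from 135980488 to 136047560 as deposited. Its level was 452, 482 and 469 CPM in the lenvatinib libraries, against 386, 409 and 402 CPM in the untreated ones. Every lenvatinib library lay above every untreated one. Cacna1s averaged 468 ± 15.3 CPM with lenvatinib and 399 ± 12.1 CPM without it (SD, n = 3 each), a log2 fold change of 0.23 ± 0.03 with an adjusted p of 2.28e-08.

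Cacng1 encodes the gamma subunit of the same channel, which in mouse muscle limits its calcium current (chromosome 11, 107594044 to 107607348). It was at 224, 231 and 218 CPM in lenvatinib libraries and at 205, 214 and 214 CPM in untreated libraries, so the groups were close but did not overlap. The log2 fold change was 0.09 ± 0.03 (adjusted p = 0.0184). Without the second lenvatinib library it was 0.07 (adjusted p = 0.137) and without the first untreated library 0.07 (adjusted p = 0.127), so the call rests on these libraries.

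Stac3 encodes the adaptor that brings the voltage sensor to the surface and couples it to release (chromosome 10, 127337555 to 127344692). Its libraries read 88.7, 86.1 and 85.4 CPM with lenvatinib and 79.2, 83.5 and 80.8 CPM without it. The groups did not overlap, and the log2 fold change of 0.10 ± 0.04 was just past the threshold (adjusted p = 0.043). This call was lost with DESeq2 (adjusted p = 0.118), with limma-voom (adjusted p = 0.0551), with the replicate block (adjusted p = 0.0556) and in 5 of 6 fits that left out 1 library, namely any one but the second untreated library (adjusted p up to 0.173).

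The release channel gene Ryr1 fell. It encodes the ryanodine receptor of skeletal muscle, the channel through which the store empties, on chromosome 7 from 28702769 to 28824604 as deposited. Its level was 832, 919 and 929 CPM in the lenvatinib libraries, against 1049.7, 1032 and 1107 CPM in the untreated libraries. The first lenvatinib library was the lowest of its group, and all 3 lay below every untreated library. Ryr1 averaged 893 ± 53.3 CPM with lenvatinib and 1063 ± 39.3 CPM without it (SD, n = 3 each), a log2 fold change of -0.25 ± 0.04 with an adjusted p of 0.00156. Leaving out 1 library gave -0.28 to -0.20 with adjusted p-values up to 0.0167.

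Within each library the sensor and the channel therefore stood in a different ratio in the 2 groups. The ratio of Ryr1 to Cacna1s, both in CPM per kb of feature length, was 0.566, 0.586 and 0.609 with lenvatinib and 0.837, 0.775 and 0.846 without it. The mean ratio differed by -28.3%, lenvatinib against untreated, which does not depend on the scaling between libraries or on the lengths used. It was chosen after the values of both genes were seen and is given as a description.

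The junctional genes differed from each other. Trdn encodes triadin, the membrane protein that links calsequestrin to the ryanodine receptor (chromosome 10, 32956550 to 33352705). It read 98.8, 103 and 93.4 CPM in lenvatinib libraries, against 80.3, 80.2 and 81.4 CPM in untreated libraries. Every lenvatinib library was above every untreated one, and the untreated libraries lay close together (SD 0.661 CPM). Its log2 fold change of 0.28 ± 0.04 was the largest rise of the 10 genes (adjusted p = 4.58e-08). The row of Trdn counts all its transcripts over a feature length of 14603 bases, so skeletal and cardiac splice forms are not separated.

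Jph1 encodes junctophilin 1, which ties the reticulum to the transverse tubule (chromosome 1, 17034784 to 17168113). Its libraries were at 130.04, 128.5 and 130.0 CPM with lenvatinib and at 134, 132 and 131.9 CPM without it. The untreated libraries were all higher by a small margin, with SDs of 0.854 and 0.822 CPM in lenvatinib and untreated libraries. The log2 fold change was -0.03 ± 0.03 with a 95% interval of -0.10 to 0.03, and it was not called (adjusted p = 0.458).

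The calcium store genes parted. Casq1 encodes calsequestrin 1, the main calcium buffer in the reticulum of fast muscle, on chromosome 1 from 172037461 to 172047435 as deposited. It read 159.7, 166 and 157 CPM in the lenvatinib libraries, against 238, 267 and 273 CPM in the untreated libraries. The groups did not overlap, and the first untreated library was the lowest of its group. Casq1 averaged 161 ± 4.60 CPM with lenvatinib and 259 ± 18.5 CPM without it (SD, n = 3 each), 1.61-fold lower (log2 fold change -0.69 ± 0.05, adjusted p = 2.39e-07).

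Casq2 encodes the cardiac and slow-fibre isoform, which young skeletal muscle also makes, and it had the highest mean CPM of the 10 genes (chromosome 3, 101993731 to 102053830). Its levels were 1488, 1503 and 1447.5 CPM with lenvatinib and 1381, 1418 and 1452 CPM without it, so the groups overlapped at the third library of each. The log2 fold change was 0.06 ± 0.02 with a 95% interval of 0.01 to 0.11 before adjustment, and it was not called (adjusted p = 0.0561). It passed in the same direction under some alternatives, such as upper-quartile scaling (adjusted p = 0.0281) and without the third library of either group (adjusted p = 0.0362 without the lenvatinib one and 0.0253 without the untreated one).

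Casq1 made up 10.3, 10.6 and 10.4% of the calsequestrin pair in the lenvatinib libraries and 15.7, 16.8 and 16.8% in the untreated ones, in CPM per kb. The mean share was 10.5 ± 0.132% with lenvatinib and 16.4 ± 0.674% without it (SD, n = 3 each), a difference of -5.97 percentage points. Every lenvatinib library was below every untreated one, and the exact two-sided permutation test gave p = 0.1, the smallest that 3 against 3 libraries allow (also 0.1 adjusted over the 2 shares tested). Casq2 was the main isoform in all 6 libraries, at 8.67, 8.43 and 8.59 times the level of Casq1 with lenvatinib and 5.39, 4.95 and 4.94 times without it.

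**Figure D2:**
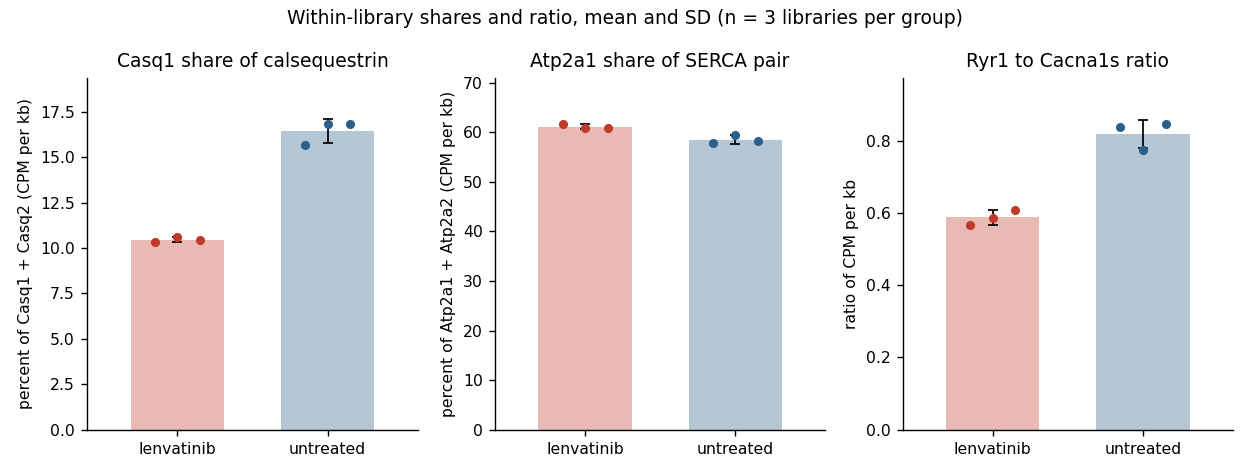
Share of Casq1 in the calsequestrin pair, share of Atp2a1 in the SERCA pair (both percent of CPM per kb) and ratio of Ryr1 to Cacna1s, per library, with lenvatinib left and untreated right. Points are libraries, bars means and whiskers SDs. The groups do not overlap in any panel, and the Casq1 share lies at 10.3 to 10.6% with lenvatinib and at 15.7 to 16.8% without it.

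Of the calcium pump genes only Atp2a2 was called, with a small fall that kept its call under all 15 alternative ways of processing. Atp2a1 encodes SERCA1, the pump of fast fibres (chromosome 7, 126045030 to 126062280), and was at 1337, 1373 and 1304 CPM with lenvatinib and at 1257, 1349 and 1309.5 CPM without it. The groups overlapped and the gene was not called (log2 fold change 0.04 ± 0.03, 95% interval -0.02 to 0.09, adjusted p = 0.341). Another gene, Rabep2, overlaps the Atp2a1 row on the opposite strand, and its own row came to 1.31% of the CPM of Atp2a1.

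Atp2a2 encodes SERCA2, whose splice forms serve slow and cardiac muscle and the reticulum of other cells and are not separated in these counts (chromosome 5, 122591576 to 122640288). It read 1128, 1197 and 1143 CPM in lenvatinib libraries, against 1248, 1248 and 1275 CPM in untreated libraries. All lenvatinib libraries were lower, and the gene fell by 0.12 on the log2 scale (SE 0.03, adjusted p = 0.000226). The share of Atp2a1 in the pair, per kb, was 61.7, 60.9 and 60.8% with lenvatinib and 57.8, 59.5 and 58.2% without it. That is a difference of 2.63 percentage points with no overlap between the groups (exact two-sided permutation test, p = 0.1, the smallest possible, and 0.1 adjusted over the 2 shares).

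**Figure D3:**
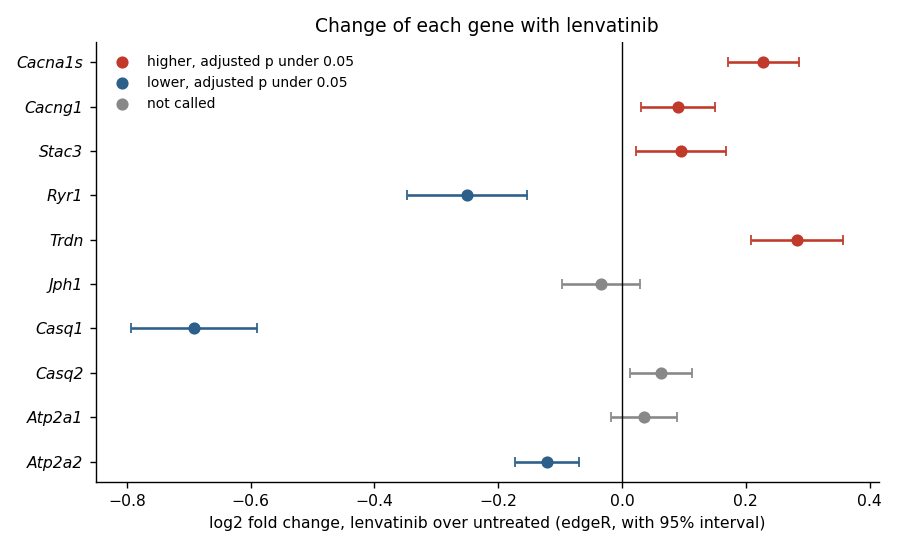
Log2 fold change of each gene, lenvatinib over untreated, with its 95% interval from the edgeR fit before adjustment, ordered by role. Red marks genes called higher, blue genes called lower and grey genes not called. Casq1 stands lowest at -0.69, and Trdn and Cacna1s highest at 0.28 and 0.23.

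Levels of different genes were set side by side per kb of the deposited feature length. In lenvatinib libraries Casq2 led at 541 ± 10.6 CPM per kb, followed by Atp2a1 (286 ± 7.31), Atp2a2 (182 ± 5.76) and Cacng1 (112 ± 3.12). Next in the lenvatinib libraries were Cacna1s (69.3 ± 2.26 CPM per kb), Casq1 (63.2 ± 1.81) and Ryr1 (40.7 ± 2.43), and the lowest levels were those of Stac3 (34.1 ± 0.689), Jph1 (25.1 ± 0.165) and Trdn (6.73 ± 0.316). No 2 neighbours in this order overlapped among lenvatinib libraries. In untreated libraries the order was the same except that Casq1, at 102 ± 7.27 CPM per kb, stood above Cacna1s at 59.2 ± 1.80, and the ranges of Casq1 (93.7 to 107) and Cacng1 (102 to 107) overlapped. With the length of the longest GENCODE M21 coding transcript in place of the feature length, Casq1 stayed above Cacna1s in both groups (87.1 and 74.8 CPM per kb with lenvatinib, 140.5 and 63.8 without it). By that length it was Ryr1 that stood below Cacna1s with lenvatinib (58.2 and 74.8 CPM per kb) and above it without (69.2 and 63.8). The order of these 3 genes therefore depends on the length used, and Trdn was the lowest and Casq2 the highest by either length.

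**Figure D4:**
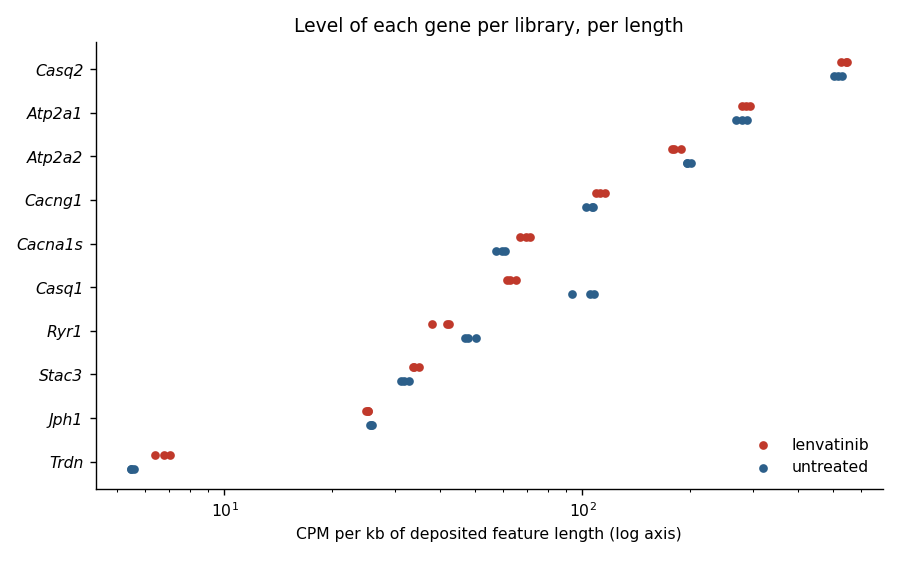
Level of each gene in CPM per kb of deposited feature length, on a log axis, with 1 point per library, lenvatinib above untreated in each row. Casq2 lies at 529 to 549.5 CPM per kb with lenvatinib and at 505 to 531 without it, and Trdn lies lowest. The points of Casq1 lie at 61.6 to 65.2 with lenvatinib and at 93.7 to 107 without it.

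The paralogs of these genes were read next. Stac2, an adaptor of the Stac family, fell to 54.7, 56.3 and 58.4 CPM with lenvatinib, against 89.3, 92.7 and 92.4 CPM in untreated libraries, with no overlap (log2 fold change -0.69 ± 0.04, adjusted p = 1.46e-18). Its family member Stac3 was called in the other direction, and Stac was at 1.59 ± 0.128 and 1.33 ± 0.222 CPM in lenvatinib and untreated libraries (adjusted p = 0.464). Ryr3, the ryanodine receptor of developing muscle, fell as Ryr1 did, to 36.8 ± 1.94 CPM with lenvatinib against 43.3 ± 3.44 CPM without it (log2 fold change -0.24 ± 0.05, adjusted p = 0.000826). The cardiac paralogs Ryr2 and Cacna1c had at most 3 counts in any library, where 3 counts correspond to 0.0926 to 0.123 CPM, and were not tested.

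Jph2, the other junctophilin of muscle, was at 709 ± 9.93 CPM with lenvatinib and 672 ± 15.1 CPM without it (log2 fold change 0.08 ± 0.03, adjusted p = 0.0209). Jph2 lost its call without the third lenvatinib, the first untreated or the third untreated library (adjusted p up to 0.102). Atp2a3, the third SERCA gene, was at 1.87 ± 0.231 CPM with lenvatinib and 1.33 ± 0.056 CPM without it, with no overlap between the groups, and was not called (log2 fold change 0.49 ± 0.22, adjusted p = 0.0879).

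Other genes of calcium handling were taken from a list of 101 genes sorted by role, of which 98 had a row and 84 were tested. With lenvatinib 22 of them rose, 23 fell and 39 did not pass. That is 53.6% called against 28.2% of all tested rows, with a median log2 fold change of -0.02 against 0.00274. The list and the member genes were chosen with earlier results of these data known. Comparisons of either with other rows, here, above and by role below, are therefore descriptions and not independent tests. The list was also not matched to other rows for abundance. Among rows at least as abundant as the lowest member gene, 44.6% were called. By role the share called was 28.6% for mitochondrial calcium transport, 37.5% for buffers and 42.9% for voltage sensor partners. It was 50% for triad, pump regulator and membrane excitation genes, and 58.3% for release channel regulators and for effectors. It was 72.7% for IP3 receptor and store-operated entry genes and 100% for plasma membrane exit. Roles held only 2 to 14 tested genes, and these shares were not tested against those of other rows. The list held no common direction, and the roles are given in turn, with the genes of the smallest p in each.

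Among partners of the voltage sensor 1 of 7 tested genes rose and 2 fell. Beside Stac2, the beta subunit gene Cacnb3 fell by 0.11 on the log2 scale (adjusted p = 0.0087), a call lost without the second lenvatinib or the second untreated library (adjusted p up to 0.0854). The member that rose was Cacna2d1, the alpha-2-delta subunit of the channel, by 0.09 (adjusted p = 0.0326), a call lost without any 1 library except the third untreated, and with DESeq2 and limma-voom (adjusted p up to 0.258). Of 12 tested release channel regulators 5 rose and 2 fell: Srl, the reticulum protein sarcalumenin, rose by 0.12, Asph, whose splice forms include junctin, by 0.16, and Selenon, a selenoprotein of the reticulum, by 0.18.

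In the triad and T-tubule group 2 of 14 tested genes rose and 5 fell. Cav3, the muscle caveolin, was at 53.9, 58.5 and 55.7 CPM in lenvatinib libraries, against 74.2, 84.1 and 80.1 CPM in untreated libraries, with no overlap (log2 fold change -0.50 ± 0.04, adjusted p = 6.17e-12). The membrane fission gene Dnm2 fell by 0.13 and the membrane repair gene Dysf by 0.12, while the ankyrin gene Ank1 rose by 0.17. Of the pump regulators, Mrln, which encodes the SERCA inhibitor myoregulin, rose by 0.50 at 4.51 ± 0.303 CPM with lenvatinib and 3.18 ± 0.387 CPM without it (adjusted p = 0.00623). The other inhibitors Sln and Pln had too few counts for a test. A low row does not show that a transcript is missing: Rps10, which encodes a ribosomal protein, had 0 to 8 counts per library.

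Genes of calcium exit through the plasma membrane included the largest rise of the list. Slc8a1, the sodium-calcium exchanger NCX1, was at 38.5, 36.4 and 40.2 CPM in lenvatinib libraries, against 24.5, 21.6 and 23.7 CPM in untreated libraries. The groups lay far apart, with a log2 fold change of 0.72 ± 0.06 and an adjusted p of 1.65e-13. The plasma membrane pump gene Atp2b4 rose by 0.43 ± 0.04 to 88.3 ± 2.42 CPM, against 65.5 ± 2.07 CPM in untreated libraries, and its family member Atp2b1 fell by 0.12. These were the 3 tested genes of 8.

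Of 11 tested IP3 receptor and store-operated entry genes 3 rose and 5 fell. The 3 IP3-gated release channel genes did not share a direction: Itpr3 fell by 0.30 and Itpr2 by 0.37 (log2), while Itpr1, named here after its values were seen, was called higher. Itpr1 averaged 23.0 ± 3.25 CPM with lenvatinib and 19.3 ± 0.522 CPM without it, with overlapping groups (log2 fold change 0.25 ± 0.08, adjusted p = 0.0172). The call of Itpr1 was lost without replicate 2 or replicate 3 of either group (adjusted p up to 0.112). The store sensor gene Stim1 rose by 0.20. Among 8 calcium buffers 2 rose and 1 fell. Pvalb, the cytosolic buffer parvalbumin of fast fibres, was at 8.11 ± 0.481 CPM with lenvatinib and 11.3 ± 0.578 CPM without it (log2 fold change -0.48 ± 0.09), and Calu and Rcn3, calcium-binding proteins of the secretory pathway, rose by 0.13 and 0.18.

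Of 12 calcium effector genes 5 rose and 2 fell. Rcan2, a regulator of calcineurin, rose by 0.44 and the calcineurin target gene Nfatc3 by 0.19, while the calcineurin subunit gene Ppp3ca fell by 0.25 and the kinase gene Camk2a by 0.27. Of 7 genes of mitochondrial calcium transport none rose and 2 fell, which is 28.6% called and close to the 28.2% of all tested rows. Those that fell were Mcub, an inhibitory subunit of the uniporter, by 0.49 and Slc8b1, the exchanger that exports mitochondrial calcium, by 0.17. The call of Slc8b1 was lost without the second untreated library (adjusted p = 0.0661). Of 8 membrane excitation genes 1 rose and 3 fell. The sodium pump subunit gene Atp1b1 fell by 0.42 and the muscle sodium channel gene Scn4a by 0.15.

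**Figure D5:**
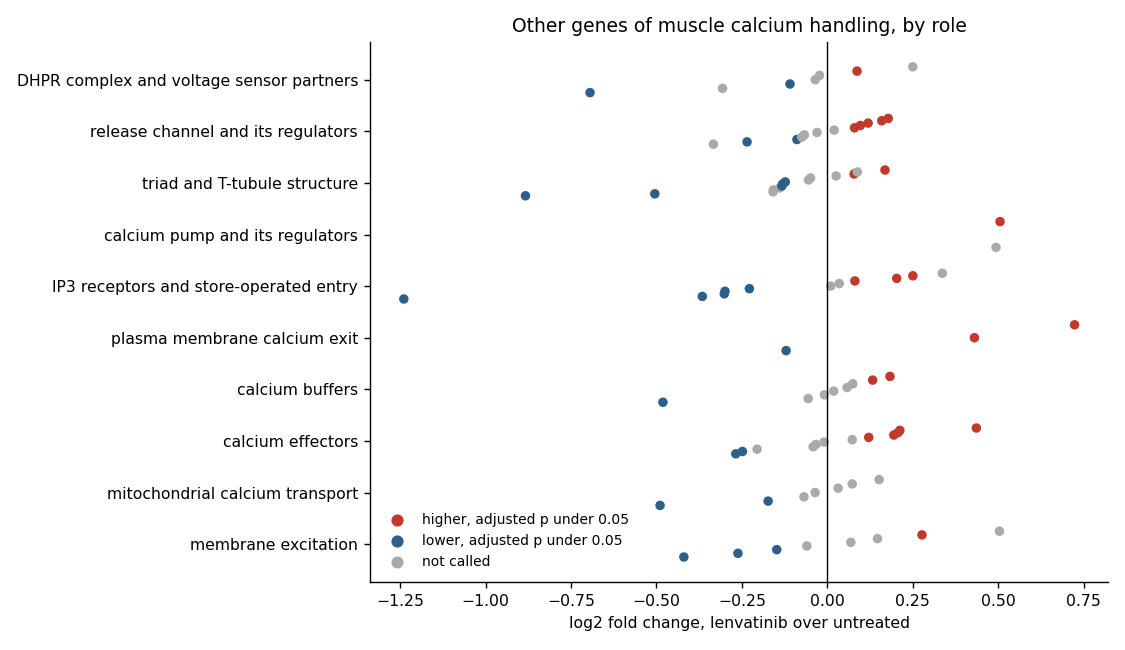
Log2 fold change, lenvatinib over untreated, of the 84 tested genes of the calcium handling list, 1 point per gene, in rows by role (DHPR is the dihydropyridine receptor). Red marks genes called higher, blue genes called lower and grey genes not called. Points lie on either side of 0 in all roles but that of the pump, which has 2 tested genes, and Slc8a1 is highest at 0.72.

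The rows whose pattern over the 6 libraries was most like that of Trdn and of Casq1 were sought among 7182 named rows with a mean of at least 20 CPM, by the root-mean-square difference of centred log2 CPM. For Trdn they were Nkiras1 (0.0189), Plekhh2 (0.0192) and Pofut2 (0.0242), with log2 fold changes of 0.28, 0.28 and 0.28. For Casq1 they were Rnf150 (0.0222), Hsd11b1 (0.0283) and Gja5 (0.0402), with log2 fold changes of -0.66, -0.73 and -0.71. Gja5, a gap junction gene, was at 73.6 ± 2.68 CPM with lenvatinib and 120.4 ± 3.81 CPM without it. Because the measure keeps the difference between the groups, it favours rows with a like fold change. None of the 6 was on the lists of calcium handling genes, which hold few of the 7182 rows searched, so nothing is concluded from this.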

How the data were processed

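The deposited table holds raw read counts per gene row, not normalized, in 6 columns matched to the samples by name and title. Per the labels' protocols reads were aligned with Hisat2, and HTSeq 0.6.1 and mm10 are named, per the submitters' processing notes. Neither the library kit nor the strand setting is given in the sources used here. The deposited feature length (unit other) is in bases. Positions are those of the table. They differ from the GRCm38 reference, another name for the mm10 of the notes, and were not combined with it. RefSeq promoters carry their own build.

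All rows were fitted at once with edgeR 4.0.16 in R 4.3.3 (TMM, filterByExpr at minimum count 10 and minimum total count 15, robust quasi-likelihood test), which kept 14989 rows. The SE is the log2 fold change over the root of F. Intervals of 95% use the total degrees of freedom of the fit. Floors of 3 counts cover counting error only, because reads that carry no molecular identifier may repeat a molecule. The script was tested on simulated data. Chi-square per degree of freedom within groups was 2.78 to 5.60, above sampling noise. Each library counted as 1 sample, although this spread does not show that the libraries were separate cultures. DESeq2 1.42.0, limma 3.58.1, other scalings, filters, the replicate block and leaving out each library were alternatives; leaving out rows wider than the gene and the GENCODE transcript length were added after seeing the data.

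Members and gene lists were chosen with earlier results of these data known. Genes named are the 10 members, their paralogs, up to 4 called genes with the smallest p per role of the calcium list, and the 3 rows most like the member with the largest rise and the one with the largest fall; markers are named with their levels. A few genes that the rule picked are not reported here. Rps10 and Itpr1 were named after their values were seen.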

Additional observations from a re-analysis of the deposited data

How the results depend on the processing

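No log2 fold change of the 10 genes turned its sign under any of 15 alternatives, and 7 of the 10 also kept their call. Stac3 was no longer called with DESeq2 (0.0947), limma-voom (0.0950) and the replicate block (0.0956), and ranged from 0.078 to 0.116 with 1 library left out. Cacng1 ranged from 0.0691 to 0.110 with 1 library left out. Casq2 was called with library totals (0.0648), upper-quartile factors (0.0690), limma-voom (0.0608) and without rows wider than the gene (0.0632), and ranged from 0.0440 to 0.0801 with 1 library left out. At an adjusted p of 0.01 the genes that rose numbered 2 of 10, 14 of the 84 tested in the calcium list and 1406 of all 14989 tested rows. With 1 library left out 2 to 4 of the 10 genes rose, against 1699 to 1781 of all 14989 tested rows. The Casq1 share differed by -7.13 percentage points per kb of the longest GENCODE transcript, a change set by the lengths. Same-numbered libraries did not deviate together (r = -0.0782 to 0.0217), and they were not treated as pairs in the main fit. With 3 libraries per group this cannot exclude a small effect shared by libraries of the same number. The replicate block gave 4134 calls over all rows against 4229, 6 against 7 among the 10 genes and 46 against 45 in the calcium list. The other causes were not tested. Genes with few counts limit the calcium list, 14 of whose rows could not be tested.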
